A study of Mus musculus with 5 samples.

Results

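The mitochondrial ribosomal protein genes are the nuclear genes for the protein subunits of the mitoribosome, and they were examined here in murine lung cancer-associated fibroblasts (CAFs) with and without overexpression of miR-200. They were taken by symbol, as every protein-coding gene of the expression table whose mouse symbol begins with Mrpl or Mrps followed by a digit. This gave 78 genes of 21835 in the table, and all 78 were expressed highly enough to be tested. The mitoribosome sits in the mitochondrial matrix and translates only the few messenger RNAs made from mitochondrial DNA, each of which codes for a subunit of the oxidative phosphorylation complexes. Its ribosomal RNA comes from mitochondrial DNA, whereas all of its proteins are made in the cytosol and imported. It has a large subunit, where peptide bonds form and the nascent chain leaves toward the inner membrane, and a small subunit, where the messenger RNA is decoded. Many of its proteins have a counterpart in the bacterial ribosome and many others exist only in mitochondria.

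Messenger RNA was sequenced from 5 samples of murine lung CAFs grown in culture after lentiviral infection and drug selection. The 2 CAF-vec samples carried the empty vector (genotype labelled as wild-type control), and the 3 CAF-200 samples carried a vector for the miR-200b/200a/429 cluster (labelled as miR-200 overexpression). The sample labels name a neomycin vector selected with G418, whereas the study's methods name a hygromycin vector, and the methods speak of RNA in triplicate, whereas 2 CAF-vec samples were analysed here. The labels do not say whether the samples of a group came from separate cultures or clones, so *p* values measure only the spread between these samples, which may be technical. The values near 0 differed in kind between the groups. The same 6127 genes were listed at 0 in all 3 CAF-200 samples and 0 genes in only some of them, whereas 7053 genes were at 0 in both CAF-vec samples and 1205 in 1 of them. In place of zeros the CAF-200 samples held values down to 1.16e-05 CPM, with 818 to 1109 values a sample under the lowest non-zero CAF-vec value of 0.00619 CPM. How these values arose is not given in the sources used here, and their part in the spread between the CAF-200 samples was not tested. The mitochondrial ribosomal protein genes lay far above this range, at 10.6 CPM or more in every sample.

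The values are the authors' normalized CPM, read counts scaled to a common total in each sample, and the number of reads behind them is unknown. The fibroblast genes *Col1a1* (1543 to 4613 CPM) and *Pdgfrb* (174.1 to 218.4 CPM) were high in all 5 samples, whereas *Fap* was at most 0.391 CPM and was not tested. The 5 epithelial markers summed to at most 0.421 CPM with *Krt18* at 0 in every sample, the 5 endothelial markers to at most 1.06 CPM, and the 6 immune markers to between 2.25 and 5.10 CPM with *Adgre1* and *Cd3e* at 0. The samples were uneven within CAF-vec. The 13 protein genes of mitochondrial DNA took 1.34% of the total in CAF-vec 1, against 9.11% in CAF-vec 2 and between 7.74% and 9.22% in the CAF-200 samples, and values without CAF-vec 1 are therefore given beside many of the results. In bulk RNA of this kind, fewer cells of a type and less RNA per cell cannot be told apart.

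Of the 78 mitochondrial ribosomal protein genes, 5 were higher in CAF-200 (*Mrpl49*, *Mrpl40*, *Mrpl35*, *Mrpl50*, and *Mrps5*) and 2 were lower (*Mrps34* and *Mrpl58*) at an adjusted *p* under 0.05. Their changes ran from a log2 fold-change (log2FC) of -0.81 for *Mrps34* to 0.86 for *Mrpl49*, and none of the 78 passed both thresholds of the study's volcano plot, which add a limit of 1 on the log2FC to an adjusted *p* under 0.01. For comparison, 30.5% of the 12175 genes tested passed the adjusted *p* of 0.05, 11.9% as higher and 18.6% as lower, and 4.72% passed both thresholds, 2.37% as higher and 2.35% as lower. The 7 genes made up 8.97% of the family. Each log2FC was computed on log2(CPM + 0.5), which understates the change of genes with low values, and the *p* values of limma were adjusted by the Benjamini-Hochberg method across the whole set of genes tested. Before adjustment, 13 of the 78 genes were higher and 4 were lower at a *p* under 0.05, against 17.3% and 27.6% of all genes tested. After centring each sample on its median, 12 of the 78 were higher and 1 was lower, against 15.4% and 14.4% of all genes tested. After quantile normalization 10 were higher and 2 were lower, against 14.7% and 15.5%.

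The family as a whole was centered slightly above 0. The median log2FC was 0.10, with 51 genes above 0 and 27 below, while the median of all genes tested was -0.094. The quartiles of the family were -0.11 and 0.28, and the SD over the 78 genes was 0.31, against 0.57 over all genes tested. In 27 of the 78 genes every CAF-200 value was above both CAF-vec values, in 8 every CAF-200 value was below both, and in 43 the groups overlapped. Among all genes tested the groups did not overlap in 61.6%, with CAF-200 above in 24.3% and below in 37.3%.

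**Figure D1:**
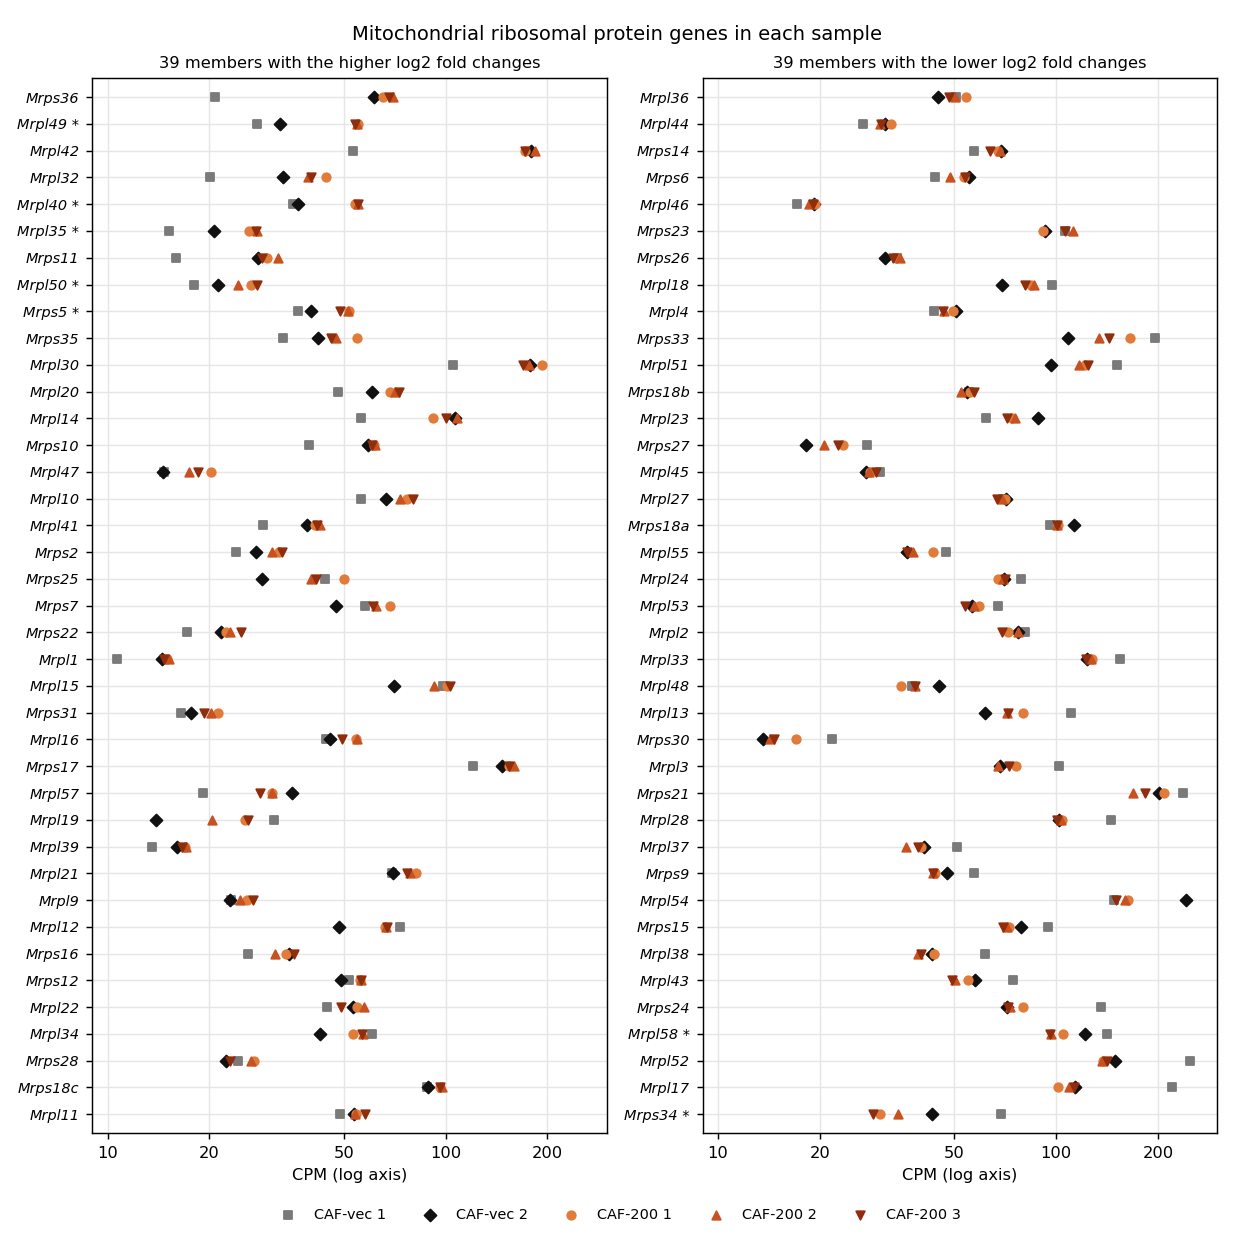
Each row is 1 of the 78 mitochondrial ribosomal protein genes, ordered by log2FC, and each symbol is the CPM of 1 sample on a log axis, with gray and black for the CAF-vec samples and orange to brown for the CAF-200 samples. An asterisk marks the 7 genes past an adjusted *p* of 0.05, and the 3 CAF-200 symbols lie close together in nearly every row whereas the CAF-vec symbols are often far apart, as for *Mrpl42* (53.1 and 179.2 CPM).

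Of the 51 genes for proteins of the large subunit, 4 rose and 1 fell, beside 11.9% and 18.6% of all genes tested. *Mrpl49* (ENSMUSG00000007338, chromosome 19 of GRCm38, 6053622 to 6057785, minus strand), which codes for a large subunit protein found only in mitochondria, was 27.6 and 32.4 CPM in CAF-vec and 55.2, 54.8, and 53.7 CPM in CAF-200. The groups were far apart relative to their own spread, at 30.03 ± 3.42 CPM (SD, n = 2) and 54.6 ± 0.757 CPM (SD, n = 3). The log2FC of *Mrpl49* was 0.86 (standard error 0.0991, adjusted *p* = 0.0047, limma), the lowest adjusted *p* of the family.

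*Mrpl40* (ENSMUSG00000022706, chromosome 16, 18872018 to 18876862, minus strand), another mitochondria-only protein of the large subunit, was 35.4 and 36.5 CPM in CAF-vec and 53.9, 54.9, and 55.1 CPM in CAF-200. Both groups were tight, with an SD of 0.761 and 0.662 CPM, and did not overlap. Its log2FC was 0.60 (standard error 0.0781, adjusted *p* = 0.0061, limma). *Mrpl49* and *Mrpl40* were the 2 genes of the family past an adjusted *p* of 0.01.

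*Mrpl35* (ENSMUSG00000052962, chromosome 6, 71812997 to 71826969, minus strand), the counterpart of bacterial protein L35, was 15.2 and 20.7 CPM in CAF-vec and 26.1, 27.6, and 27.5 CPM in CAF-200. CAF-vec 1 was the lowest sample, and the rise was smaller against CAF-vec 2 alone. The log2FC of *Mrpl35* was 0.59 with both CAF-vec samples (adjusted *p* = 0.0284, limma, with a standard error of 0.142), and it was 0.38 against CAF-vec 2 alone. *Mrpl50* (ENSMUSG00000044018, chromosome 4, 49512596 to 49521093, minus strand), a mitochondria-only protein, was 18.1 and 21.3 CPM in CAF-vec and 26.6, 24.2, and 27.7 CPM in CAF-200. All CAF-200 samples were above both CAF-vec samples, and the log2FC was 0.41 (standard error 0.114, adjusted *p* = 0.0441, limma).

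*Mrpl58* (ENSMUSG00000018858, chromosome 11, 115403752 to 115412674, plus strand) was the large subunit gene that fell. It codes for a peptidyl-tRNA hydrolase, also known as ICT1, that is built into the large subunit and releases peptides from stalled ribosomes. Its values were 141.3 and 121.5 CPM in CAF-vec and 105.0, 96.3, and 95.8 CPM in CAF-200, so every CAF-200 sample was lower than both CAF-vec samples. The log2FC was -0.40 with both CAF-vec samples (adjusted *p* = 0.0360, limma, with a standard error of 0.105), and it was -0.29 against CAF-vec 2 alone. After median centring its log2FC was -0.31 and just missed the threshold (adjusted *p* = 0.0501, limma).

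Of the 26 genes for proteins of the small subunit, 1 rose and 1 fell, beside 11.9% and 18.6% of all genes tested. *Mrps5* (ENSMUSG00000027374, chromosome 2, 127587222 to 127606829, plus strand), the counterpart of bacterial protein S5, was 36.6 and 39.9 CPM in CAF-vec and 51.7, 51.4, and 48.6 CPM in CAF-200. The groups were 38.2 ± 2.34 CPM (SD, n = 2) and 50.6 ± 1.68 CPM (SD, n = 3) and did not overlap, with a log2FC of 0.40 (standard error 0.0875, adjusted *p* = 0.0221, limma). A pseudogene elsewhere in the genome shares 98.4% identity with 1019 bases of the *Mrps5* transcript, so its reads could have been divided between them.

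*Mrps34* (ENSMUSG00000038880, chromosome 17, 24895116 to 24897502, plus strand), a mitochondria-only protein of the small subunit, fell the most in the family. It was 68.8 and 42.9 CPM in CAF-vec and 30.1, 34.0, and 28.8 CPM in CAF-200. The CAF-vec samples differed from each other by more than CAF-vec 2 differed from the CAF-200 mean of 31.0 CPM, yet every CAF-200 value was lower than both. The log2FC of *Mrps34* was -0.81 (standard error 0.209, adjusted *p* = 0.0355, limma) with both CAF-vec samples and -0.47 without CAF-vec 1 (adjusted *p* = 0.0086, limma). *Nme3*, a nucleoside diphosphate kinase gene, overlaps *Mrps34* on the same strand, so reads in the shared stretch could have been counted for either gene, and *Nme3* was also lower, at 20.7 and 13.6 CPM in CAF-vec and 7.31, 6.55, and 6.53 CPM in CAF-200 (log2FC -1.24, adjusted *p* = 0.0085, limma).

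The calls of 5 of the 7 genes needed all 3 CAF-200 samples. Leaving out any 1 of them left *Mrpl49* and *Mrpl40* past the threshold and none of the others. All genes tested also lost calls, with 4.34% higher and 5.74% lower without CAF-200 1, 4.09% and 4.71% without CAF-200 2, and 3.56% and 3.96% without CAF-200 3. At an unadjusted *p* under 0.05 (limma), 5 to 7 of the 78 genes were higher and 2 lower, against 12.4% to 12.8% and 19.0% to 21.0% of all genes tested. When same-numbered samples were blocked, a fit in which CAF-200 3 has no partner and does not enter the estimate, 1 of the 78 genes was higher (*Mrpl49*) and 0 were lower, against 5.17% and 7.0% of all genes tested (12.2% in either direction), with 7 higher and 1 lower at an unadjusted *p* under 0.05 (limma), against 12.9% and 20.4%. Over 14 alternatives of scaling, filter, and samples, the highest adjusted *p* (limma) was 0.0387 for *Mrpl49*, 0.0571 for *Mrpl40*, 0.113 for *Mrpl35*, 0.195 for *Mrpl50*, 0.1196 for *Mrps5*, 0.155 for *Mrps34*, and 0.159 for *Mrpl58*, and none of the 7 changed its direction.

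**Figure D2:**
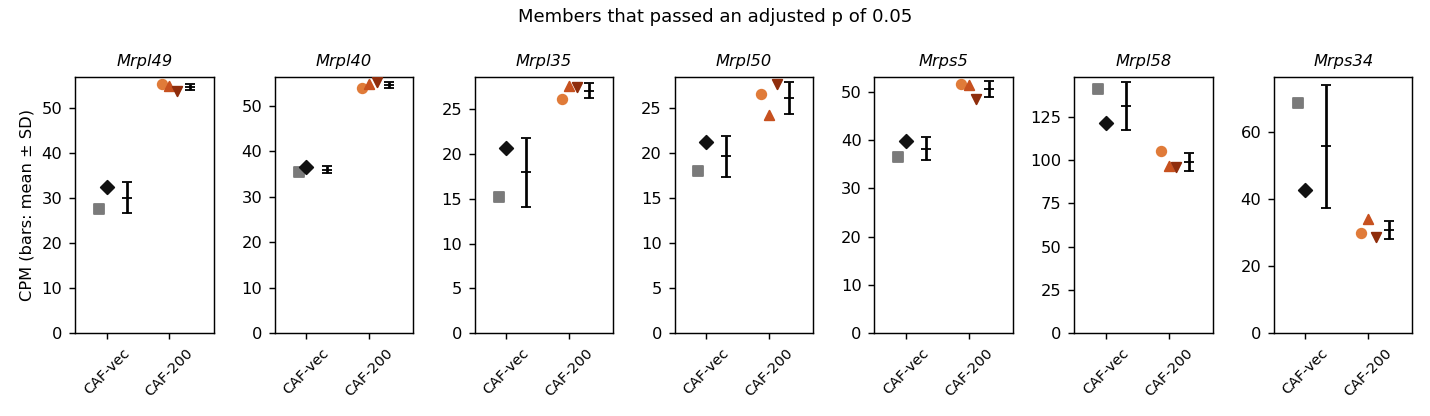
Each panel shows the CPM of 1 of the 7 genes past an adjusted *p* of 0.05, from an axis that starts at 0, with 1 symbol per sample and a bar for the mean ± SD of each group (n = 2 CAF-vec, n = 3 CAF-200). *Mrpl49*, *Mrpl40*, *Mrpl35*, *Mrpl50*, and *Mrps5* were higher in all 3 CAF-200 samples, and *Mrpl58* and *Mrps34* were lower in all 3, with the widest CAF-vec spread for *Mrps34* (68.8 and 42.9 CPM).

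Grouped by place in the mitoribosome, the genes had medians between -0.013 and 0.14 in the 4 larger groups with both CAF-vec samples. These medians moved with the CAF-vec sample, and those of both mitochondria-only groups changed sign. Over all genes tested 11.9% rose and 18.6% fell. Among the 30 large subunit proteins with a bacterial counterpart, 1 rose and none fell, with a median log2FC of 0.13 (0.13 without CAF-vec 1 and 0.067 without CAF-vec 2). Among the 21 large subunit proteins found only in mitochondria, 3 rose and 1 fell, with a median of -0.013 (-0.016 without CAF-vec 1 and 0.078 without CAF-vec 2). The mitochondria-only proteins of the large subunit include *Mrps30* and *Mrps18a*, whose proteins belong to the large subunit despite their names. Among the 16 small subunit proteins with a bacterial counterpart, 1 rose and none fell, with a median of 0.14 (0.073 without CAF-vec 1 and 0.18 without CAF-vec 2). Among the 10 found only in mitochondria none rose and 1 fell, with a median of 0.053 (0.17 without CAF-vec 1 and -0.010 without CAF-vec 2). The 5 genes of the stalk, the flexible arm of the large subunit that recruits translation factors (*Mrpl10*, *Mrpl11*, *Mrpl12*, *Mrpl53*, and *Mrpl54*), had a median of 0.11 and none passed (1 higher and 0 lower at an unadjusted *p* under 0.05, limma). The median of the stalk was 0.046 without CAF-vec 1 and 0.087 without CAF-vec 2. *Mrpl10*, which anchors the stalk, was 56.1 and 66.5 CPM in CAF-vec and 76.9, 73.3, and 79.9 CPM in CAF-200 (log2FC 0.32, adjusted *p* = 0.0665, limma, and 0.20 without CAF-vec 1). Its groups did not overlap, and the difference missed the threshold.

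**Figure D3:**
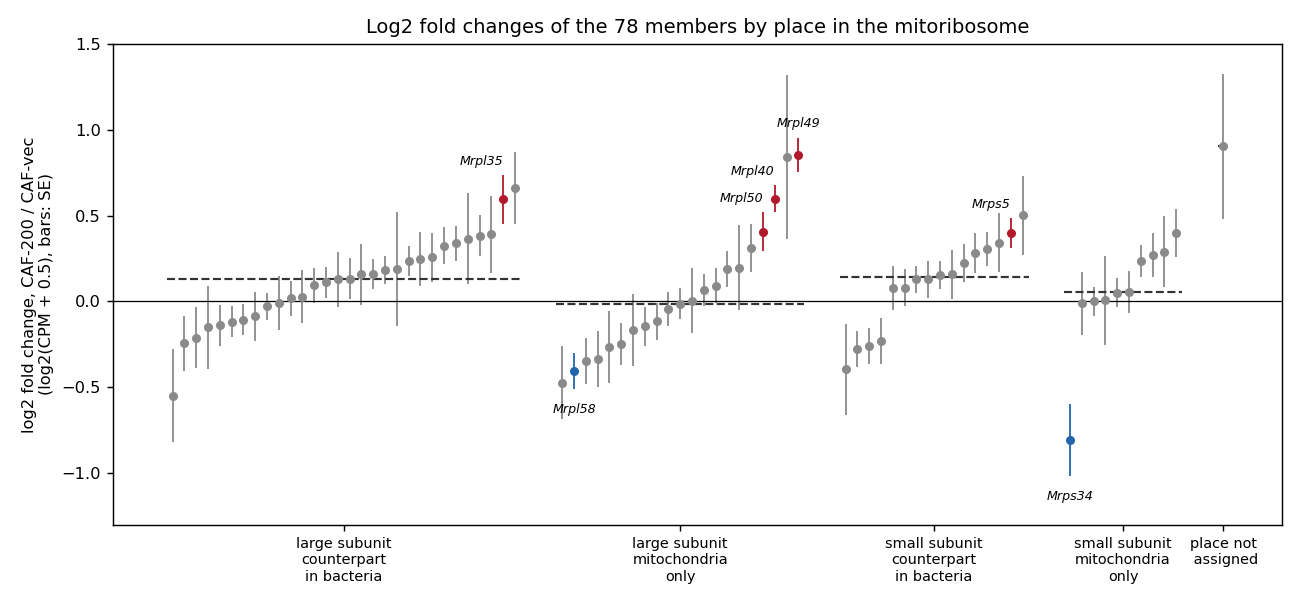
Each point is the log2FC (CAF-200 over CAF-vec, on log2(CPM + 0.5)) of 1 gene with its standard error as a bar, in 5 groups by place in the mitoribosome, and dashed lines mark group medians. Red points rose and blue points fell at an adjusted *p* under 0.05, the 4 larger groups center between -0.013 and 0.14 with both CAF-vec samples, and the long bars of single points mark genes whose CAF-vec samples differ.

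The largest fold-change of the family did not pass the test. *Mrps36* (ENSMUSG00000061474, chromosome 13, 100735955 to 100744659, minus strand), whose product is also known as a component of the 2-oxoglutarate dehydrogenase complex and was therefore assigned to neither subunit, was 20.8 and 61.6 CPM in CAF-vec and 65.2, 69.7, and 68.0 CPM in CAF-200. Only CAF-vec 1 stood clearly apart from the other samples. The log2FC was 0.90 (standard error 0.422, adjusted *p* = 0.153, limma) with both CAF-vec samples and 0.13 without CAF-vec 1. *Mrpl42* (ENSMUSG00000062981, chromosome 10, 95480805 to 95501940, minus strand), a mitochondria-only protein of the large subunit, was 53.1 and 179.2 CPM in CAF-vec and 171.4, 184.0, and 171.4 CPM in CAF-200. Again CAF-vec 1 was low and CAF-vec 2 lay within the CAF-200 range, so that the log2FC was 0.84 (standard error 0.477, adjusted *p* = 0.220, limma) with both samples and -0.030 without CAF-vec 1. *Mrpl32*, the counterpart of bacterial L32, was 20.1 and 33.0 CPM in CAF-vec and 44.2, 39.1, and 40.0 CPM in CAF-200, with a log2FC of 0.66 (adjusted *p* = 0.0625, limma) that remained at 0.31 without CAF-vec 1.

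Others were high in CAF-vec 1. *Mrpl17* was 219.4 and 113.5 CPM in CAF-vec and 101.2, 109.4, and 112.9 CPM in CAF-200 (log2FC -0.55, adjusted *p* = 0.169, limma), and without CAF-vec 1 its log2FC was -0.075. *Mrpl52* was 248.3 and 149.2 CPM in CAF-vec and 137.4, 136.4, and 141.8 CPM in CAF-200 (log2FC -0.47, adjusted *p* = 0.141, limma), and -0.11 without CAF-vec 1. In both genes CAF-vec 2 was close to CAF-200. *Mrpl19* (ENSMUSG00000030045, chromosome 6, 81957851 to 81965958, minus strand) was 31.1 CPM in CAF-vec 1 and 13.9 CPM in CAF-vec 2, and the CAF-200 values of 25.6, 20.4, and 25.98 CPM lay between them. Its log2FC was 0.19 (adjusted *p* = 0.682, limma) with both samples, 0.76 against CAF-vec 2 alone, and -0.38 against CAF-vec 1 alone. *Mrpl54*, a stalk protein gene, was 148.5 CPM in CAF-vec 1 and 242.3 CPM in CAF-vec 2, against 162.8, 159.7, and 150.8 CPM in CAF-200, and its log2FC was -0.27 with both samples, -0.62 against CAF-vec 2 alone, and 0.087 against CAF-vec 1 alone.

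In the family, and over all genes tested, the CAF-vec samples differed from each other more than the CAF-200 samples did. Between CAF-vec 1 and CAF-vec 2, 26 of the 78 genes differed by more than 0.5 on the log2 scale, or 33.3%, against 24.8% of all genes tested, while 0 of the 78 differed by that much between any pair of CAF-200 samples, against 1.96% to 2.80% of all genes tested. In 66 of the 78 genes the difference between the CAF-vec samples exceeded the whole range of the CAF-200 samples, with medians of 0.32 and 0.12. The difference had no common direction, since 39 of the 78 genes were higher in CAF-vec 2. Over the 78 genes, log2 differences had an SD of 0.53 for CAF-vec 1 against CAF-vec 2, of 0.10 to 0.12 within CAF-200, and of 0.23 to 0.26 for CAF-vec 2 against each CAF-200 sample. The differences between the CAF-vec samples had a Spearman's rho of -0.078 with transcript length and -0.18 with GC content over the 78 genes, which share the same 2 libraries and are not independent replicates. The log2FC values themselves had a rho of 0.18 with length and -0.34 with GC content over the same genes, as a description across genes that share the 5 libraries.

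The direction of many genes therefore depended on the CAF-vec sample. Compared with each CAF-vec sample alone, 32 of the 78 genes were higher in CAF-200 against both and 14 were lower against both, whereas 32 had opposite signs. Of those 32, 20 were higher only against CAF-vec 2 and 12 only against CAF-vec 1. The 7 genes that passed with both samples were among those with the same sign against each. Their choice largely fixed this, because a gene passes only where the CAF-vec samples differ little beside its change. Without CAF-vec 1, 20 of the 78 genes rose and 5 fell, against 20.1% and 27.0% of all genes tested (47.0% in either direction). Without CAF-vec 2, 31 rose and 23 fell, against 24.9% and 39.7% of all genes tested (64.6% in either direction). In both of these fits the lone CAF-vec sample was assumed to vary like the CAF-200 samples, which were close together. The median log2FC of the family was 0.079 without CAF-vec 1 and 0.10 without CAF-vec 2.

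**Figure D4:**
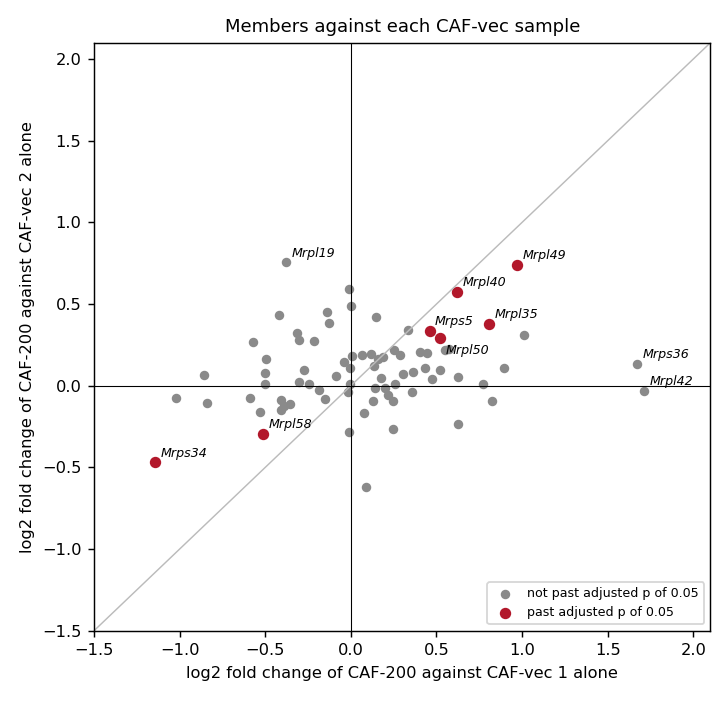
Each point is 1 of the 78 genes, with its log2FC of CAF-200 against CAF-vec 1 alone on the horizontal axis and against CAF-vec 2 alone on the vertical axis, and red points passed an adjusted *p* of 0.05 with both samples. The points spread widely along the horizontal axis (up to 1.71 for *Mrpl42*) and less along the vertical one, 32 genes fall in the quadrants of opposite sign, and the 7 red points keep their sign.

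The summed level of the family was nearly the same in all samples. The 78 genes together made 5180 and 4893 CPM in CAF-vec and 5158, 5023, and 4999.9 CPM in CAF-200. The groups overlapped, at 5036 ± 203 CPM (SD, n = 2) and 5060 ± 85.4 CPM (SD, n = 3), with a log2 ratio of 0.0069. The large subunit genes summed to 3450 and 3307 CPM in CAF-vec and 3410, 3354, and 3328 CPM in CAF-200. The small subunit genes summed to 1709 and 1524 CPM in CAF-vec and 1683, 1600, and 1604 CPM in CAF-200. The ratio of the first sum to the second was 2.02 and 2.17 in CAF-vec and 2.03, 2.096, and 2.08 in CAF-200. The messenger RNAs that the mitoribosome translates were far less even, since the 13 protein genes of mitochondrial DNA summed to 13440 CPM in the first CAF-vec sample and 91136 CPM in the second, against 77431, 91322, and 92173 CPM in CAF-200. CAF-vec 1 was the lowest sample for 12 of the 13, all 13 overlapped between the groups, and none passed, also at an unadjusted *p* under 0.05 (limma). Their median log2FC was 1.30 with both CAF-vec samples and -0.12 without CAF-vec 1. With CPM rescaled to totals that leave out these 13 genes, 7 of the 78 mitochondrial ribosomal protein genes were higher and 2 were lower, the earlier 7 among them, against 13.2% and 17.1% of all genes tested (30.3% in either direction). The median log2FC was then 0.15, against -0.045 over all genes tested.

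**Figure D5:**
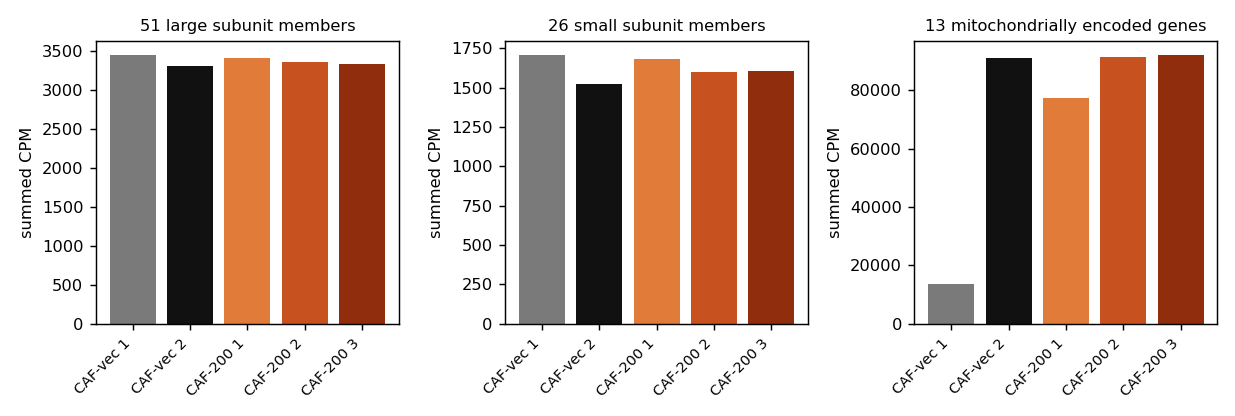
Bars give the summed CPM of each sample, from 0, for the 51 large subunit genes, the 26 small subunit genes, and the 13 protein genes of mitochondrial DNA. The ribosomal sums vary little (3307 to 3450 CPM and 1524 to 1709 CPM), whereas the mitochondrial DNA genes reach only 13440 CPM in CAF-vec 1 and at least 77431 CPM in the other 4 samples.

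Levels within the family, compared as CPM per kilobase of exon, ranged widely although the products assemble into 1 particle. Over the 5 samples the highest were *Mrps21* (356.1 CPM per kilobase), *Mrpl52* (331.1), and *Mrpl54* (286.1), and the lowest were *Mrps30* (4.90), *Mrpl19* (4.68), and *Mrpl1* (3.26). The same 6 genes held these ranks when the longest transcript was used in place of all exons. For *Mrpl54*, *Mrps30*, and *Mrpl19* both lengths gave the same value, so this could not change their levels. The longest 3′ UTRs were 1972 bases in *Mrps30*, 4090 in *Mrpl19*, and 2390 in *Mrpl1*, against a family median of 388.5. The part of this length in their low ranks was not tested. *Mrps21*, the counterpart of bacterial S21, was 237.8 and 200.8 CPM in CAF-vec and 208.4, 168.4, and 183.3 CPM in CAF-200, and the groups overlapped (log2FC -0.23, adjusted *p* = 0.225, limma, and -0.11 without CAF-vec 1). *Mrpl1*, at the other end, was 10.6 and 14.5 CPM in CAF-vec and 15.0, 15.2, and 14.7 CPM in CAF-200 (log2FC 0.26, adjusted *p* = 0.215, limma, and 0.042 without CAF-vec 1). *Mrps30* was 21.8 and 13.6 CPM in CAF-vec and 17.0, 14.2, and 14.7 CPM in CAF-200 (log2FC -0.17, adjusted *p* = 0.559, limma). None of these 3 genes was separated by group by more than the difference between the CAF-vec samples. *Mrps21* and *Mrpl52* held the top 2 places in both groups, and *Mrpl1* the last. In CPM, the mean over the 5 samples ran from 14.01 to 199.8 with a median of 53.7, against 24.3 over all genes tested, and the longest annotated transcripts of the family had a median of 1327.5 bases against 3123.

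The overexpressed cluster makes 3 main mature miRNAs, which pair with messenger RNAs mainly through the seed, bases 2 to 8. The sequences are shown to define the sites that were searched for. They are from RefSeq, on the minus strand of chromosome 4 of GRCm38.p6, with the seed in capitals.
mmu-miR-200b-3p: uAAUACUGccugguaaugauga
mmu-miR-429-3p: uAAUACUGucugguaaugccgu
mmu-miR-200a-3p: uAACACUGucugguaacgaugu
miR-200b and miR-429 share 1 seed and miR-200a has another, so that the matching heptamers in a messenger RNA are CAGTATT and CAGTGTT.

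Few mitochondrial ribosomal protein genes carried such a heptamer. In the longest annotated 3′ UTR, 15 of the 78 genes held at least 1 of them, or 19.2%, against 30.3% of all genes tested with an annotated 3′ UTR. CAGTATT was in 3 of the 78, or 3.85% against 15.7%, and CAGTGTT was in 13, or 16.7% against 20.8%. The median length of these 3′ UTRs was 388.5 bases against 1174, and the part of length in these shares was not tested. None of the 7 genes that passed the test held a match. The 15 genes with a match had a median log2FC of 0.15, from -0.55 for *Mrpl17* to 0.66 for *Mrpl32*, and the 63 without had a median of 0.093, while over all genes tested the medians were -0.066 with and -0.11 without. The 3 CAGTATT matches (miR-200b and miR-429) are shown because they are the only ones in the family, as 29 bases of the coding strand with the heptamer in capitals, and the coordinates (GRCm38) are those of the heptamer within the 3′ UTR exon.
*Mrps30*, chr13:118380072-118380078, minus strand: atcgctaataaCAGTATTgggctatcttt
*Mrpl51*, chr6:125193997-125194003, plus strand: aagatcacaccCAGTATTacccctgtgtg
*Mrps35*, chr6:147071914-147071920, plus strand: cagccccaatcCAGTATTtttaatttcca
Of these 3 genes, *Mrpl51* had a log2FC of 0.0047 (0.32 without CAF-vec 1 and -0.32 without CAF-vec 2) and *Mrps30* of -0.17 (0.16 without CAF-vec 1), and *Mrps35*, a small subunit protein found only in mitochondria, had 0.40 (33.0 and 42.0 CPM in CAF-vec, 54.7, 47.5, and 45.9 CPM in CAF-200, adjusted *p* = 0.0800, limma), and 0.23 without CAF-vec 1. *Mrpl17* was the gene with a pair of CAGTGTT matches, at positions 5539 and 5554 of its 3′ UTR of 6651 bases. A heptamer match is a description of the letters and does not show that a site is bound.

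Among the promoters of the family, the letters of 3 of 5 motifs searched (NRF1, ETS, and YY1) were in a larger share of windows than among the genes tested, and no test was made of these shares. RefSeq windows of 300 bases around the start were at hand for 69 of the 78 genes (75 windows) and were searched on both strands. The motif of NRF1, an activator of nuclear genes for mitochondrial proteins, was searched as GCGCA, any base, and GCGC, and was in 17.3% of the windows, against 10.0% of those of the genes tested and 4.603% of all windows. The motif of GABP and other ETS factors, CCGGAAGT, was in 16.0%, against 8.12% and 3.89%. The YY1 motif, AAGATGGCG, was in 10.7%, against 3.02% and 1.40%. CACGTG, the E-box bound by MYC, was in 9.33%, against 9.84% and 7.15%, and the SP1 motif GGGCGG was in 52.0%, against 63.0% and 35.7%. The TATA box letters TATAAA were searched only on the strand of the gene, in a short stretch upstream of the start. There they were in 0 of the 75 windows and in 1.04% of those of the genes tested, and the rest of each window was not searched for them. Matches of different motifs overlapped in 0 of the genes.

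The fold-changes were compared by motif as a description. The 13 genes with the NRF1 motif had a median log2FC of 0.16 and the 56 without had 0.10. The 12 with the ETS motif had a median of -0.019 and the 57 without had 0.16, and the 8 with the YY1 motif had a median of 0.042 and the 61 without had 0.13. The 5 with the E-box had a median of 0.093 and the 64 without had 0.12, and the 34 with the SP1 motif had a median of 0.079 and the 35 without had 0.13. None of the genes with the NRF1, ETS, or E-box motif passed the test, of those with the YY1 motif *Mrpl35* did, and of those with the SP1 motif *Mrpl49*, *Mrpl40*, and *Mrps5* did. Over all genes tested 30.5% passed, and in the family 8.97% did. Windows of up to 30 bases are shown for some of the genes with large log2FC values of either sign (0.59 for *Mrpl35*, 0.84 for *Mrpl42*, -0.40 for *Mrps24*, 0.66 for *Mrpl32*, and -0.55 for *Mrpl17*), on the strand of the gene in GRCm38.p6, with the motif in capitals. The YY1 window of *Mrps11* (log2FC 0.50) is not among them.
*Mrpl35*, YY1, chr6:71823742-71823771, minus strand: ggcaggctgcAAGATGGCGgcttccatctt
*Mrpl42*, YY1, chr10:95501903-95501932, minus strand: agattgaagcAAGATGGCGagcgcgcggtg
*Mrps24*, YY1, chr11:5707652-5707675, minus strand: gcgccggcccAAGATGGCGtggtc
*Mrpl32*, NRF1, chr13:14613105-14613134, minus strand: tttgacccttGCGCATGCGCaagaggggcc
*Mrpl17*, NRF1, chr7:105811117-105811146, minus strand: aggctctgatGCGCACGCGCaaacgcggta
Counted from the start that RefSeq gives, the YY1 letters lie at positions 23 in *Mrpl35*, 27 in *Mrpl42*, and 36 in *Mrps24*. The RefSeq start of *Mrpl35* lies inside the GENCODE span given above.

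Many mitochondrial ribosomal protein genes share a start region with another gene. In 18 of the 78, or 23.1%, the start of a protein-coding gene on the opposite strand lay within 1000 bases upstream, at 26 to 935 bases and a median of 82, against 10.7% of all genes tested. Of the 18 neighbors, 3 rose and 4 fell, which is 7 of 18 beside the 30.5% of all genes tested, and both genes passed in 1 pair. That pair was *Mrps34* and *Eme2*, a subunit of a structure-specific endonuclease, 29 bases apart, where *Eme2* was 35.0 and 26.2 CPM in CAF-vec and 16.8, 15.7, and 14.3 CPM in CAF-200 (log2FC -0.94, adjusted *p* = 0.0095, limma). In the other pairs with a gene of the family that passed, the neighbor did not pass. *Mrpl49* lies 59 bases from *Fau*, which codes for a protein of the cytosolic small ribosomal subunit fused to a ubiquitin-like domain, and *Fau* was 1371 and 1338 CPM in CAF-vec and 1261, 1362, and 1269 CPM in CAF-200 (log2FC -0.063, adjusted *p* = 0.692, limma). *Mrpl40* lies 175 bases from *Hira* (log2FC -0.14), *Mrps5* 128 bases from *Zfp661* (-0.078), and *Mrpl50* 83 bases from *Zfp189* (-0.032). Without CAF-vec 2 the log2FC was 0.10 for *Zfp661* and 0.16 for *Zfp189*. Conversely, *Apba3*, 26 bases from *Mrpl54*, was 79.1 and 85.8 CPM in CAF-vec and 45.6, 47.3, and 44.8 CPM in CAF-200 (log2FC -0.84, adjusted *p* = 0.0035, limma), while the CAF-200 values of *Mrpl54* lay between its CAF-vec values. The signs of the 2 log2FC values were the same in 7 of the 18 pairs.

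Some values of the family are uncertain for reasons of annotation. A pseudogene with at least 95% identity over at least 200 bases exists elsewhere in the genome for 17 of the 78 genes, and none of these pseudogenes is listed in the table. *Mrps36* has 4 such copies, the closest with 99.3% identity over 306 bases, and *Mrpl42* and *Mrpl32* have 1 each. In addition, 4 of the 78 genes overlap a protein-coding gene on the same strand and 23 overlap one on the other strand, including *Mrpl49* with *Syvn1* and *Mrpl40* with *Gm28539*. The libraries were stranded, but the strand setting of the counting is not given in the sources used here.

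The mitoribosomal proteins that carry other symbols were mixed. Of 5 such genes, 1 rose and none fell, beside 11.9% and 18.6% of all genes tested. *Ptcd3*, a pentatricopeptide repeat protein of the small subunit, was 38.6 and 55.4 CPM in CAF-vec and 74.4, 69.6, and 72.6 CPM in CAF-200, above both CAF-vec samples in every case (log2FC 0.64, standard error 0.160, adjusted *p* = 0.0332, limma). Without CAF-vec 1 the log2FC of *Ptcd3* was 0.38. *Chchd1*, another small subunit protein, was 16.2 and 40.8 CPM in CAF-vec and 38.96, 52.4, and 43.5 CPM in CAF-200, so that CAF-vec 1 was again the low sample (log2FC 0.78, adjusted *p* = 0.163, limma). The log2FC of *Chchd1* was 0.13 without CAF-vec 1 and 1.43 without CAF-vec 2. *Dap3*, the GTP-binding protein of the small subunit, had a log2FC of -0.11, *Aurkaip1* of -0.064, and *Gadd45gip1* of -0.033, and without CAF-vec 1 those of *Dap3* (0.085) and *Gadd45gip1* (0.18) were above 0.

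The genes that build and run the mitoribosome were counted in 3 lists, beside 18.6% of all genes tested that fell and 11.9% that rose. Among 26 assembly and ribosomal RNA factors, 1 rose and 2 fell, with a median log2FC of -0.20 (-0.089 without CAF-vec 1). *Mettl17*, a factor needed for assembly of the small subunit, was 17.96 and 9.92 CPM in CAF-vec and 5.58, 6.33, and 5.45 CPM in CAF-200, with a log2FC of -1.14 (adjusted *p* = 0.0211, limma) that was -0.73 without CAF-vec 1. *Eral1*, which binds the small ribosomal RNA, had -0.45 (adjusted *p* = 0.0263, limma), and *Mettl15*, a methyltransferase for that RNA, rose by 0.67 (adjusted *p* = 0.0083, limma). Among 15 translation factors and regulators, 3 fell and none rose, with a median of -0.19 (-0.041 without CAF-vec 1). These were the initiation factor *Mtif3* (log2FC -0.67, adjusted *p* = 0.0268, limma, and -0.45 without CAF-vec 1), the release factor *Mtrf1l* (-0.55, adjusted *p* = 0.0116, limma), and *Oxa1l*, which inserts new chains into the inner membrane (-0.47, adjusted *p* = 0.0268, limma). Among 17 mitochondrial aminoacyl-tRNA synthetases, 3 fell (*Vars2*, *Aars2*, and *Hars2*, with log2FC values from -0.78 to -0.51, and from -0.52 to -0.45 without CAF-vec 1) and none rose. Their median was -0.048 with both CAF-vec samples, and its sign turned with the sample, at 0.10 without CAF-vec 1 and -0.16 without CAF-vec 2.

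Of the 5 genes for transcription of mitochondrial DNA, *Polrmt*, the RNA polymerase, fell from 64.6 and 42.9 CPM in CAF-vec to 29.8, 26.7, and 29.7 CPM in CAF-200 (log2FC -0.86, adjusted *p* = 0.0196, limma), and its log2FC was -0.57 without CAF-vec 1. *Tfb2m* (-0.37), *Tfam* (-0.31), *Mterf1a* (-0.13), and *Tefm* (-0.013) did not pass, and without CAF-vec 1 *Tfam* was at -0.10, *Tfb2m* at 0.024, *Mterf1a* at -0.28, and *Tefm* at 0.43. Without CAF-vec 2 *Mterf1a* was at 0.016. Of 9 regulators of nuclear genes for mitochondria, 3 rose and 2 fell, beside 11.9% and 18.6% of all genes tested. *Myc*, whose product binds the E-box, was 45.9 and 52.6 CPM in CAF-vec and 89.9, 78.6, and 87.9 CPM in CAF-200 (log2FC 0.79, adjusted *p* = 0.0069, limma), and *Gabpb1* (0.32) and *Pprc1* (0.30) also rose. *Ppargc1a* (-0.75) and *Ppargc1b* (-0.59), coactivators of mitochondrial biogenesis, fell at levels of at most 1.78 CPM. *Nrf1* and *Yy1*, whose motifs were searched in the promoters above, had log2FC values of 0.11 and 0.081 (0.042 and -0.14 without CAF-vec 1) and did not pass.

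The cytosolic ribosome and the oxidative phosphorylation complexes, the family's nearest relatives by function, were counted in the same way. The cytosolic list was taken by symbol, as Rpl or Rps followed by a digit, which leaves out *Fau* and can take in kinase genes with such symbols. Of its 91 genes tested, 2 rose and 2 fell, with a median log2FC of 0.12 (0.087 without CAF-vec 1 and 0.21 without CAF-vec 2). Of 80 nuclear oxidative phosphorylation subunit genes tested, 4 rose and 5 fell, with a median of -0.0045 (0.027 without CAF-vec 1 and 0.012 without CAF-vec 2). Over all genes tested 11.9% rose and 18.6% fell. The fold-changes of the mitochondrial ribosomal protein genes had an SD of 0.31, those of the cytosolic list 0.39, and those of the oxidative phosphorylation subunits 0.45. Proliferation genes moved in the same samples, since 11 of 12 rose, with a median log2FC of 0.67. *Pcna*, the sliding clamp of DNA replication, was 168.4 and 174.7 CPM in CAF-vec and 381.4, 362.7, and 391.8 CPM in CAF-200 (log2FC 1.14, adjusted *p* = 0.0025, limma). The 9 fibroblast markers tested were split, since 4 rose and none fell at an adjusted *p* under 0.05 (5 higher and 2 lower at an unadjusted *p* under 0.05, limma). Their log2FC values ran from -0.91 for *Col1a1*, a collagen gene that was at -0.31 without CAF-vec 1, to 2.82, with 5 above 0 and 4 below. *Acta2*, which encodes smooth muscle actin, was among those that rose (log2FC 2.63, adjusted *p* = 0.0012, limma). The study reported less of this actin in CAF-200 by immunostaining, so the direction of this RNA differs from that of its protein measure. All CAF-200 values lay above both CAF-vec values in 5 of the 9 and below both in 3, beside 24.3% and 37.3% of all genes tested. The 10 markers in the list summed to 10394 and 5164 CPM in CAF-vec and 5399, 5178, and 5016 CPM in CAF-200, a log2 ratio of -0.58. The part of these differences in the values of the mitochondrial ribosomal protein genes was not tested. *Zeb1*, the textbook target of miR-200, was 43.5 and 50.7 CPM in CAF-vec and 37.8, 37.5, and 34.1 CPM in CAF-200, and its log2FC of -0.36 just missed the threshold (adjusted *p* = 0.0504, limma). *Zeb2*, the other of the 2 known targets listed, had a log2FC of -0.23, its groups overlapped, and it did not pass.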

How the data were processed

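RNA was sequenced from 2 CAF-vec and 3 CAF-200 samples as stranded, paired-end mRNA libraries. The authors deposited 1 table of normalized CPM values, whose name refers to TMM scaling, and its columns summed to between 999956 and 1000111 CPM. The submitters' processing notes name GRCm38 (mm10), FastQC, cutadapt, Trimmomatic, STAR, RSEM, and edgeR, and the annotation is not given in the sources used here. In the CPM values the authors deposited, 19.8% to 42.1% of low values were within 0.05 of a whole multiple of the commonest low value, and 10% would be by chance, so reads were not recovered, depth is unknown, and no interval or limit of detection is given. Genes listed at 0 numbered 7898 and 7413 in the CAF-vec samples and 6127, the same genes, in each CAF-200 sample, where very small values stood in place of other zeros. Without counts it could not be tested whether the CAF-200 samples differ by more than sampling noise.

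Names, coordinates, lengths, and 3′ UTRs came from GENCODE M21 (GRCm38), which named 21795 of the 21835 genes, and miRNA and promoter sequences came from RefSeq (GRCm38.p6). Near copies were searched with BLAST+ 2.17.0. The test covered the 12175 genes that reached 0.5 CPM in 2 or more samples. It used limma 3.58.1 (R 4.3.3), with lmFit and a trended eBayes on log2(CPM + 0.5) and Benjamini-Hochberg adjustment, and was first tested on simulated data. All 5 columns were used and 0 were left out. Genes named are those called at an adjusted *p* under 0.05 (at most 10 in each direction), the 3 highest and 3 lowest by CPM per kilobase, and the 3 that differ most between the CAF-vec samples. From each related list other than cell type markers, cytosolic ribosomal proteins, and oxidative phosphorylation subunits, the largest called changes are named. All genes of such lists with 5 or fewer are named too. From the lists of cell type markers only some genes are named. Other genes were named after their values were seen. The genes and lists were chosen with earlier results of these data known. Tables and plots were made in Python 3.11.15 with pandas 2.3.3, numpy 2.4.6, and matplotlib 3.10.9.

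Alternatives were pseudocounts of 1 and 0.1 CPM, no filter, a filter of 1 CPM in all samples, quantile normalization, median centring, an untrended fit, other thresholds, omission of each sample, and the replicate number as a block. Totals without the genes of mitochondrial DNA were added after the data were seen.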

Additional observations from a re-analysis of the deposited data

How the results depend on the processing

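The counts of mitochondrial ribosomal protein genes called depended on the samples more than on the scaling. *Mrpl49* passed under all 14 alternatives of scaling, filter, and samples, and *Mrpl40* under 13 of 14, all but the replicate block, whereas *Mrps5* passed under 10, *Mrpl35* and *Mrps34* under 9, and *Mrpl50* and *Mrpl58* under 8. The pseudocounts, the filter of 1 CPM in every sample, and the added totals kept all 7. The median log2 fold-change of the 78 genes stayed between 0.079 and 0.21. With no filter 4 genes were higher and 0 lower, against 4.0% and 5.42% of all 21835 genes (15 and 3 at an unadjusted *p* under 0.05, limma, against 10.2% and 15.2%), with quantile normalization 10 were higher, with median centring 12 were higher and 1 lower, and at an adjusted *p* under 0.01 2 were higher and 0 lower, against 4.45% and 5.57% of all genes tested. With the second fold-change limit at 0.5, the same 2 genes passed both thresholds as higher, and the share over all genes tested was not counted at this limit. Of 5 related lists (mitoribosomal proteins with other symbols, assembly factors, translation factors, synthetases, and mitochondrial transcription), where 2 genes rose and 9 fell, 1 rose and 2 fell with no filter, and 4 rose with quantile normalization and with median centring. Leaving out each sample gave 2 to 31 genes higher and 0 to 23 lower, with 0 to 3 higher and 0 to 2 lower past both thresholds, and 0 to 12 higher and 0 to 29 lower in these 5 lists. The low ends came from leaving out any CAF-200 sample, where 5 to 7 genes were higher and 2 lower at an unadjusted *p* under 0.05 by limma, and the high ends from leaving out a CAF-vec sample, where the lone sample is assumed to vary like CAF-200. The cause of these shifts was not tested beyond the number of samples. For the fits that leave out a sample, the share of all genes tested past both thresholds was not counted. The counts of the family past both thresholds in those fits therefore have no comparison. The sign of the log2 fold-change depended on the CAF-vec sample in 32 of the 78 genes, among them *Mrps30* (-0.50 to 0.16), *Mrpl42* (-0.030 to 1.71), *Mrpl54* (-0.62 to 0.087), and *Mrpl19* (-0.38 to 0.76), the ends coming from the omission of either CAF-vec sample.

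Samples of the groups share the numbers 1 and 2, and the labels do not tie them. With the replicate block, 1 gene of the family was higher and 0 lower (7 and 1 at an unadjusted *p* under 0.05, limma), and 0 genes of those 5 lists rose and 2 fell, against 5.17% of all genes called higher and 7.0% lower. Deviations from the group means correlated at 0.25 for number 1 and 0.13 for number 2. CAF-vec 2 also had 0.12 with CAF-200 3, which shares no number with it, and the deviations of 2 CAF-vec samples are mirror images, so these values do not show a pairing. The test on whole reads was not run because none were recovered. Depth limits what low values can show, but it is unknown here.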
